A study of Mus musculus with 5 samples.

Results

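The primary cilium genes examined here are 52 of the 17739 genes in the expression table of a mouse medulloblastoma study. The rule picks genes by symbol: the intraflagellar transport (IFT) and Bardet-Biedl syndrome (BBS) genes numbered under those names, the tectonic genes Tctn1 to Tctn3, the kinesin-II and dynein-2 motor genes, and named genes of the transition zone, the basal body and ciliary Hedgehog trafficking. The rule itself uses no expression value. The tumours came from Math1-Cre;Gli2A mice, offspring of Math1-Cre and R26;Gli2A animals, which received doxycycline (DOX) in the diet from embryonic day 0, and GLI2 is labelled as active. RNA was taken from tumour cells of the cerebellum right after papain digestion, and all 5 libraries (tumours 1, 5, 8, 14 and 15) form 1 group, with no library from a mouse without active GLI2. The Cre driver is active in granule neuron progenitors and related rhombic lip cells, other cerebellar cells can be in the digest, and the labels do not say whether transgene reads were counted under Gli2. The labels do not say that each tumour number is a separate animal, so the spread between libraries may be partly technical.

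The primary cilium is a single, non-motile projection of the plasma membrane, built on a basal body and closed off from the cytoplasm by the transition zone. IFT trains carried by kinesin-II move cargo to the tip, trains carried by dynein-2 return it, and the BBSome sorts membrane proteins for export. Granule neuron progenitors carry such a cilium, and it is where Smoothened acts and where GLI proteins are processed. In mouse models, loss of cilia is known to block medulloblastoma driven by activated Smoothened and to permit medulloblastoma driven by an activated GLI2. With 1 group, the data give how much of each cilium transcript these tumours held and how the tumours differed. They do not compare GLI2 states.

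Several of these genes share a promoter feature, so their promoters are shown before the values. RFX transcription factors, known regulators of cilium genes, bind the X-box motif. A full motif was sought as GTNNCC and GGNNAC separated by 1 to 3 bases, and a short motif as GTTGCC, on both strands, in RefSeq windows (GRCm38.p6) of 250 bases before to 50 bases after a gene's start. A full motif can contain the short one. RefSeq windows were found for 47 of the 52 genes. These 47 genes had 52 windows, and a gene was counted if any of its windows held the motif. The full motif was in 10 of 47 (21.3%), against 660 of 13736 table genes with a window (4.80%). The short motif was in 21 of 47 (44.7%), against 15.0% of table genes. At least 1 of the 2 was in 24 of 47, or 51.1%, against 17.6%. The 10 genes with a full motif were Bbs1, Bbs4, Bbs7, Ift22, Ift57, Mks1, Rab23, Tctn1, Tctn2 and Tctn3, which includes all 3 tectonics of the transition zone. A GLI motif, GACCACCCA, was in 0 of 47 genes and in 0.262% of table genes, which says only that these letters are not in these windows. A match describes letters and is not evidence of binding.

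**Figure D1:**
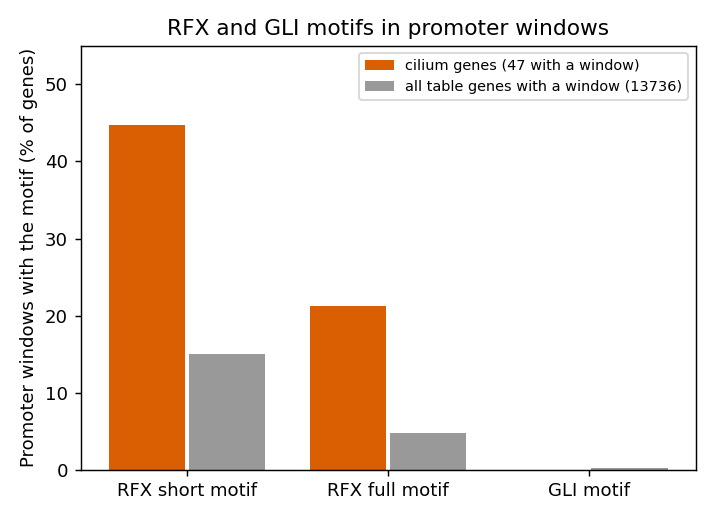
Share of genes (vertical axis, percent) whose RefSeq promoter window holds the short RFX motif, the full RFX motif or the GLI motif, for the 47 cilium genes with a window (orange) and the 13736 table genes with a window (grey). The cilium genes stand at 44.7% and 21.3% for the RFX motifs, above the 15.0% and 4.80% of all table genes, and at 0 for the GLI motif.

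The 6 full-motif genes with the highest expression per exon length are shown here 5′ to 3′ on the gene's strand, with full and short RFX motifs in capitals. Ift57 lies in an IFT-B train and has 2 full motifs, at bases -87 to -74 and -60 to -48 from the start (chr16:49699044-49699343, plus strand). Ift22 has a pair as well, at -63 to -50 and -33 to -20 (chr5:136907900-136908199, plus strand). The motif of Bbs4 lies after the start, at bases 24 to 37 (chr9:59353459-59353758, minus strand). Those of Tctn3 (-140 to -128, chr19:40612182-40612481, minus strand), Rab23 (-112 to -99, chr1:33719646-33719945, plus strand) and Bbs7 (-121 to -108, chr3:36613340-36613639, minus strand) lie farther upstream. In Ift57 and Tctn3 a motif with a 1-base spacer occurs, and all other full motifs had a spacer of 2.
Ift57: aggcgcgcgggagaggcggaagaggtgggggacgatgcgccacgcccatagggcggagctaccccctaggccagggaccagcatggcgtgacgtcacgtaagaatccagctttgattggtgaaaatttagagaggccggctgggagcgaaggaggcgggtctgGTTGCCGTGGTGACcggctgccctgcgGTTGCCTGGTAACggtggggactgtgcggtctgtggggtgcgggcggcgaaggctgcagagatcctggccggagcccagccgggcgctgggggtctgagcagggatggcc
Ift22: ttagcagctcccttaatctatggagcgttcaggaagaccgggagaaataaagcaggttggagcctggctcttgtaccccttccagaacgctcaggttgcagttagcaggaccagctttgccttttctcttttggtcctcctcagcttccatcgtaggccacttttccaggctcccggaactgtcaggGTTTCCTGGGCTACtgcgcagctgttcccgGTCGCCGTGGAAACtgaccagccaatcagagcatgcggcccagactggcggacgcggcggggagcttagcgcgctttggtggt
Bbs4: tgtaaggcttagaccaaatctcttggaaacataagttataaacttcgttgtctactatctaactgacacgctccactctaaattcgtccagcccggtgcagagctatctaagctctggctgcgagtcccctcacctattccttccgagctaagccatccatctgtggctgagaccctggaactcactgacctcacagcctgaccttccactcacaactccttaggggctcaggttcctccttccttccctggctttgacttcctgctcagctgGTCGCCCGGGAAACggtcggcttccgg
Tctn3: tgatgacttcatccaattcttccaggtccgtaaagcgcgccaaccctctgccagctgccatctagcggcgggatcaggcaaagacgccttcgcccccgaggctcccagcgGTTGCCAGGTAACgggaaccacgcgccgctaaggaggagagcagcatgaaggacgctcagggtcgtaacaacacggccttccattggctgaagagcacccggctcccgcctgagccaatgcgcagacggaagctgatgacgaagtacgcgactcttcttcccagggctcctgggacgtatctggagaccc
Rab23: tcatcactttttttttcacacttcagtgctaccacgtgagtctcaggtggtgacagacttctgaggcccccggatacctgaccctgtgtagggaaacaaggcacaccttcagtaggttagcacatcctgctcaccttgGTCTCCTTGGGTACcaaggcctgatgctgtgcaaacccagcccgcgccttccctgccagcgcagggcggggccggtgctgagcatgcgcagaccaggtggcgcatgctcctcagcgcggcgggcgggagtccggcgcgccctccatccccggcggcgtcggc
Bbs7: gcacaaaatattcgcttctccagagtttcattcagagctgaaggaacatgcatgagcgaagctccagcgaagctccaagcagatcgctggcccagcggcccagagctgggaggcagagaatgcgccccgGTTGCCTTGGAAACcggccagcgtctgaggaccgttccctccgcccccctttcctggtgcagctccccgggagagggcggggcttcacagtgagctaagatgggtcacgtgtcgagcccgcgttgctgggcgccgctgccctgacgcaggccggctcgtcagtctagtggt

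All 52 cilium genes were expressed in these tumours. Each had a mean of 5 or more on the deposited log2 scale, the floor used here, which 13691 of 17739 genes reached and which defines expressed genes below. This level is a normalised log2 expression value, not corrected for transcript length. The median level over the 52 genes was 8.97, 8.92, 8.90, 9.11 and 9.15 in tumours 1, 5, 8, 14 and 15, or 9.01 ± 0.11 (SD, n = 5). The median of means over all genes was 8.55, and over expressed genes it was 9.40. Gene means ran from 5.67 (Bbs10) to 11.46 (Kif3a). For comparing one gene with another, the log2 of the gene's exon length in kilobases was subtracted, which gives a per-length level. On that scale the median of the cilium genes was 6.56 ± 0.08 (SD, n = 5), against 6.49 over all genes and 7.18 over expressed genes. Of the 52 genes, 29 lay above the first of these medians and 17 above the second. In abundance the cilium genes lay near the middle of all genes and below the middle of expressed genes. Role medians per length spanned 5.54 to 8.25.

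**Figure D2:**
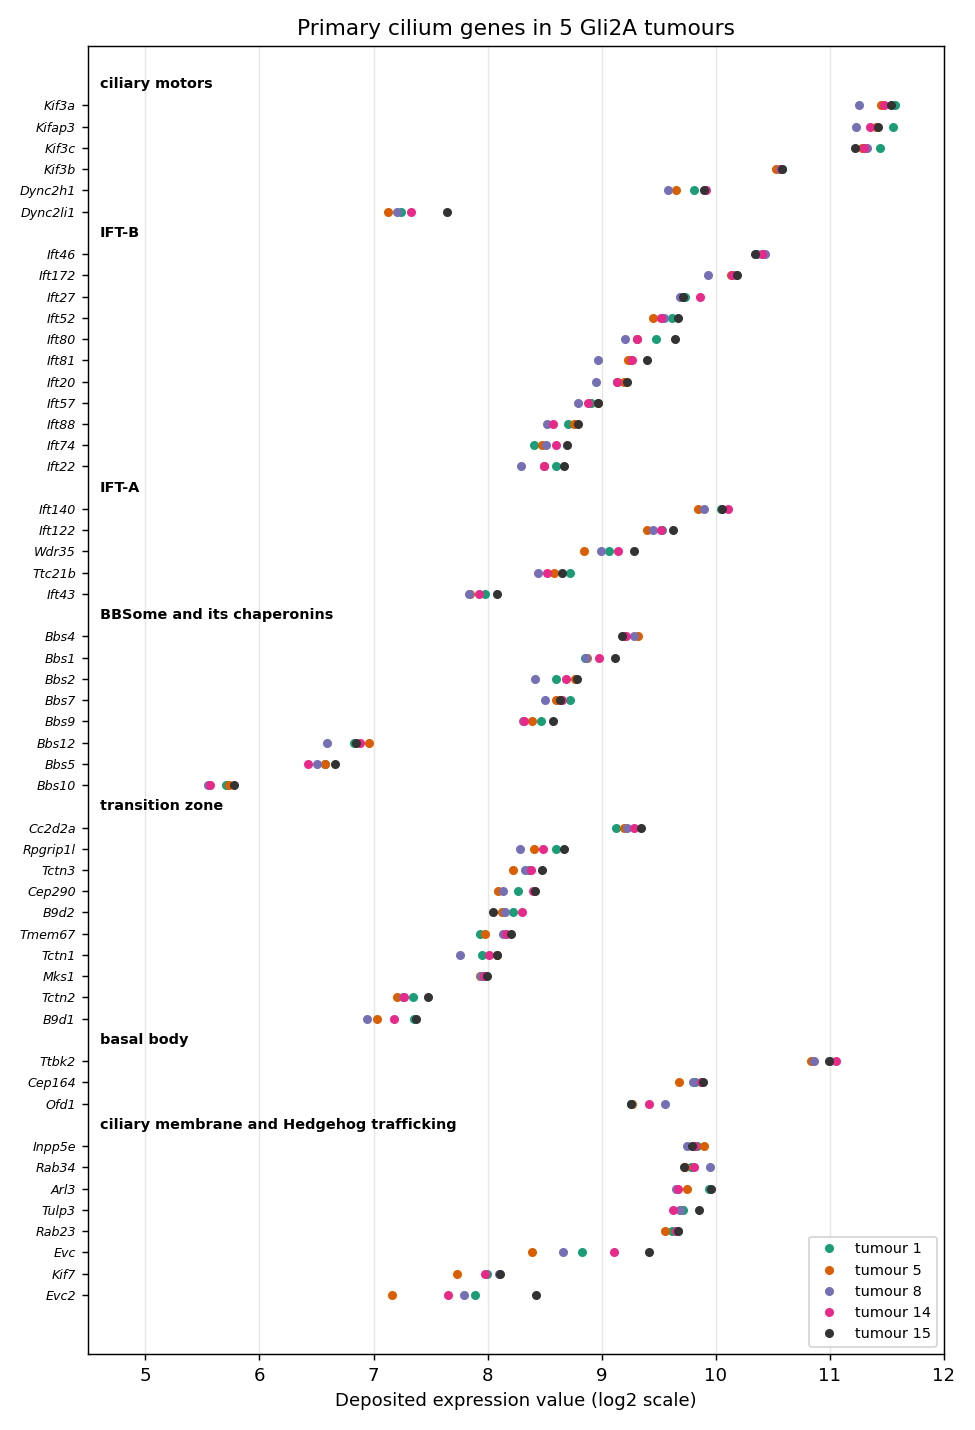
Deposited log2 expression value (horizontal axis) of 51 of the 52 cilium genes in each of the 5 tumours (coloured points), grouped by role and ordered by mean. Points of one gene lie close together for most genes, with the widest spread for Evc2 and Evc, and tumour 15 (black) is the rightmost point for 33 genes.

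Kif3a and Kifap3 of kinesin-II had the highest per-length levels of the 52 cilium genes, at 9.62 and 9.39, followed by Rab34 at 8.54. Kif3a, the motor subunit common to all kinesin-II complexes (GRCm38 chromosome 11, 53567379 to 53601967, protein coding), had log2 values of 11.57, 11.45, 11.26, 11.48 and 11.54 in tumours 1, 5, 8, 14 and 15. All 5 tumours lay within 1.24-fold, with tumour 8 the lowest. Its per-length level of 9.62 stood at the 93.1th percentile of all genes. Kifap3, the non-motor subunit that links the motor to cargo, read 11.55, 11.41, 11.23, 11.35 and 11.42 in the same order of tumours. As with Kif3a, tumour 1 was the highest and tumour 8 the lowest. Kif3b and Kif3c encode alternative partners of KIF3A, of which KIF3B serves the cilium and KIF3C is mostly neuronal. Kif3c read 11.44, 11.28, 11.33, 11.30 and 11.22. Kif3b was the least variable cilium gene of all, at 10.58, 10.53, 10.56, 10.57 and 10.58, a 1.04-fold range. Every tumour held more Kif3c than Kif3b per length, by 1.28-fold on average (Kif3b minus Kif3c -0.35 ± 0.08 on the log2 scale, SD, n = 5), and more Kif3a than Kif3b, by 2.92-fold (1.54 ± 0.12). Without the length subtraction these differences were -0.75 and 0.89, with the same signs.

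Of the genes picked by symbol, those of the return motor, dynein-2, were lower than those of kinesin-II. Dync2h1, its heavy chain, read 9.81, 9.65, 9.58, 9.91 and 9.89 in tumours 1, 5, 8, 14 and 15. Its long exons (the per-length level was 5.74) make it the lowest motor gene per length. Dync2li1, the light intermediate chain, read 7.24, 7.13, 7.21, 7.32 and 7.64, with tumour 15 above the other 4. At a range of 1.42-fold it was the most variable cilium gene after Evc2 and Evc. Per length, Dync2h1 minus Dync2li1 was -0.67 ± 0.14 (SD, n = 5) on the log2 scale. Without the length subtraction the sign was the opposite, at 2.46, so the order of this pair rests on the length correction. The 5 listed dynein-2 subunits outside the rule had deposited means of 12.22 (Dynll1), 11.84 (Dynlrb1), 8.92 (Wdr34), 7.80 (Wdr60) and 6.58 (Tctex1d2).

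IFT-B gene products form the train that kinesin-II pulls outward, and those of IFT-A the train needed for return. Of the genes picked by symbol, IFT-B stood above IFT-A per length. The per-length median was 7.36 ± 0.10 (SD, n = 5) over 11 IFT-B genes and 6.21 ± 0.15 over 5 IFT-A genes. IFT-B exceeded IFT-A by 1.15 ± 0.14. This size depends on the length correction: it was 0.45 ± 0.11 with the longest transcript in place of all exons, and 0.15 ± 0.15 with no subtraction. Neither group holds the 8 IFT subunits that carry other symbols. Their deposited median was 7.59, against 9.22 over the 11 IFT-B genes and 9.07 over the 5 IFT-A genes. The order of IFT-B and IFT-A with those subunits included was not tested. Ift20, the subunit also found at the Golgi, was the highest IFT-B gene per length, with log2 values of 9.14, 9.20, 8.95, 9.13 and 9.23. Ift80, a peripheral IFT-B subunit, was the lowest per length and the most variable of the 11, at 9.47, 9.31, 9.20, 9.31 and 9.65. For both genes tumour 8 was the lowest and tumour 15 the highest.

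Ift172, another peripheral subunit, read 10.17, 10.14, 9.93, 10.15 and 10.19, so that tumour 8 lay below a tight group of the other 4. Ift27, a small GTPase that links the train to the BBSome, read 9.73, 9.70, 9.68, 9.86 and 9.71, with tumour 14 above the rest. Ift46 was the most abundant IFT-B gene on the deposited scale, at 10.39 ± 0.04 (SD, n = 5), and it varied by 1.06-fold only. The remaining IFT-B genes were Ift52 (9.56 ± 0.09), Ift57 (8.90 ± 0.07), Ift88 (8.67 ± 0.12) and Ift22 (8.51 ± 0.14), all as deposited log2 means with SD over 5 tumours. Ift74 and Ift81 encode partners in the tubulin-binding part of the train. Ift74 read 8.41, 8.47, 8.51, 8.60 and 8.70 (mean 8.54 ± 0.11), and Ift81 read 9.25, 9.23, 8.96, 9.26 and 9.40 (mean 9.22 ± 0.16). Tumour 15 was highest for both. Their per-length difference was 0.45 ± 0.14 (Ift74 minus Ift81), and it turned to -0.22 with longest-transcript lengths and to -0.68 with none, so no order of these genes can be given.

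Among IFT-A genes, Ift43 had the highest per-length level and read 7.98, 7.85, 7.83, 7.92 and 8.08 in tumours 1, 5, 8, 14 and 15. Ttc21b, the lowest per length, read 8.72, 8.58, 8.44, 8.52 and 8.65. The tumours differed by 1.18-fold and 1.22-fold for these genes. Wdr35, which encodes IFT121, was the most variable IFT-A gene, at 9.07, 8.85, 8.99, 9.15 and 9.29. Tumour 5 was its low point and tumour 15 its high point. Ift140, at 9.99 ± 0.11, and Ift122, at 9.51 ± 0.09 (deposited log2, SD, n = 5), completed the set.

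Genes of the BBSome and its chaperonins numbered under the BBS name were less abundant than the IFT-B genes picked by symbol. The 8 genes had a per-length median of 5.88 ± 0.10 (SD, n = 5), and their difference from IFT-B was -1.48 ± 0.08, or -0.73 ± 0.08 with no length subtraction. Bbs2, a core subunit, was the highest per length, with log2 values of 8.60, 8.76, 8.41, 8.69 and 8.79. Tumour 8 was lowest for Bbs2 and for 5 of the 8 genes. Bbs10, which encodes a chaperonin-like protein that helps assemble the complex, had the lowest values of all 52 genes, at 5.71, 5.73, 5.55, 5.57 and 5.77. Bbs12, the other chaperonin-like gene, averaged 6.82 ± 0.14. The other core subunits in the set averaged 9.24 ± 0.06 (Bbs4), 8.94 ± 0.11 (Bbs1), 8.62 ± 0.08 (Bbs7), 8.41 ± 0.11 (Bbs9) and 6.55 ± 0.09 (Bbs5). The set leaves out 5 listed genes of the BBSome and its recruiters that carry other symbols. Their deposited median was 9.04, against 8.49 over the 8 genes here.

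Transition zone genes were the lowest role group per length, with a median of 5.54 ± 0.07 over 10 genes (SD, n = 5) and a difference from IFT-B of -1.83 ± 0.12, or -1.08 ± 0.16 with no length subtraction. B9d2 was the highest of them, with log2 values of 8.22, 8.12, 8.15, 8.30 and 8.04 in tumours 1, 5, 8, 14 and 15. It was 1 of 6 cilium genes with the low point in tumour 15. Its partner in the tectonic-like complex, B9d1, read 7.36, 7.03, 6.95, 7.18 and 7.37, and lay below B9d2 per length in every tumour, by 2.18-fold on average. Tctn2 was the lowest per length, at 7.35, 7.21, 7.26, 7.27 and 7.48. The annotation used for lengths types it as a processed transcript and gives it 8.32 kb of exon, so its per-length level may be understated. Tctn3 read 8.36, 8.23, 8.33, 8.38 and 8.47. It exceeded Tctn2 by 2.39 ± 0.05 on the per-length scale, 5.23-fold, in 5 of 5 tumours. This difference was 1.35 with longest-transcript lengths and 1.04 with no subtraction. Tctn1 read 7.95, 8.08, 7.76, 8.02 and 8.09. Tctn1 minus Tctn2 was 0.67 ± 0.15, but -0.084 with longest-transcript lengths.

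The same zone held 1 of the steadiest cilium genes. Mks1, mutated in Meckel syndrome, read 7.96, 7.93, 7.94, 7.96 and 7.99, a 1.04-fold range. Cc2d2a averaged 9.23 ± 0.09, Rpgrip1l 8.49 ± 0.15, Tctn3 8.35 ± 0.09, Cep290 8.26 ± 0.15, Tmem67 8.08 ± 0.12 and Tctn1 7.98 ± 0.14 (deposited log2, SD, n = 5).

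At the basal body, Ttbk2, the kinase that starts cilium assembly on the mother centriole, read 11.002, 10.84, 10.86, 11.05 and 10.99. Cep164, the distal appendage protein that recruits it, read 9.81, 9.67, 9.80, 9.87 and 9.89. Both were lowest in tumour 5. Per length, Ttbk2 exceeded Cep164 in every tumour, by 1.93-fold on average (Cep164 minus Ttbk2 -0.95 ± 0.06). With longest-transcript lengths this difference was -0.27. Ofd1, a centriole gene and the X-linked member of the set, averaged 9.35 ± 0.13 and was highest in tumour 8, at 9.55 against 9.25 to 9.41. Tumour 8 also stood apart for Xist, the RNA made from an inactive X chromosome, at 12.89 against 7.29 to 8.10 elsewhere. Sex is not given in the labels, and the part of this in the Ofd1 value was not tested.

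Genes of ciliary membrane and Hedgehog trafficking ranged widely. Rab34, a GTPase of early cilium formation, was the highest of the 9 per length, with log2 values of 9.78, 9.73, 9.95, 9.81 and 9.72. Rab23, a GTPase that restrains Hedgehog signalling, read 9.62, 9.55, 9.67, 9.65 and 9.67, a range of 1.09-fold. Rab34 exceeded Rab23 by 3.90-fold per length, while Rab23 minus Rab34 was -0.17 without the length subtraction. Arl3, which releases lipidated cargo in the cilium, read 9.94, 9.75, 9.66, 9.67 and 9.95. Inpp5e, a phosphoinositide phosphatase of the ciliary membrane, read 9.83, 9.90, 9.74, 9.81 and 9.79. The tumours lay within 1.11-fold for Inpp5e, while tumours 1 and 15 were the high pair for Arl3. Tulp3, which loads receptors onto IFT-A, averaged 9.71 ± 0.085. Kif7, a kinesin of the cilium tip that acts on GLI proteins, averaged 7.98 ± 0.15 and was lowest in tumour 5, at 7.73 against 7.98 to 8.11.

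**Figure D3:**
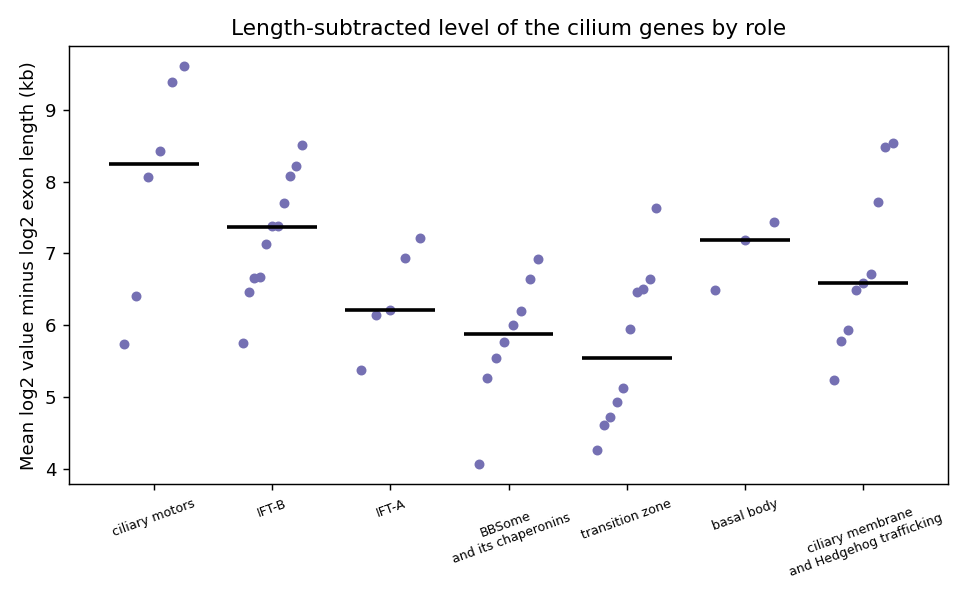
Per-length level (mean log2 value of 5 tumours minus log2 exon length in kilobases, vertical axis) of each cilium gene (points), by role, with the role's median as a line. Kinesin-II genes lead the motors, with Kif3a at 9.62, and the transition zone has the lowest median, 5.54.

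Within-tumour differences were computed for 14 pairs of cilium genes with a shared complex or role, and each pair had the same sign in 5 of 5 tumours on the per-length scale. Each gave p = 0.0625 (exact two-sided sign-flip permutation test, adjusted p = 0.0625 over 14 pairs by Benjamini-Hochberg). With 5 tumours this is the smallest p the test can give, so no pair could pass 0.05. A consistent sign shows only that the difference, as computed, exceeds the spread between tumours, and not which gene is more abundant. The length correction is the same in every tumour, so it adds nothing to this spread but shifts the difference itself. The signs of Dync2h1 minus Dync2li1, Ift74 minus Ift81 and Tctn1 minus Tctn2 changed with the length correction used.

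Most cilium genes varied little between tumours, and about as much as expressed genes in general. The median SD of the 52 genes was 0.11, against 0.11 over expressed genes and 0.11 over the 11236 genes within the same range of means. The highest and lowest tumours differed by 1.20-fold for the median cilium gene, against 1.21-fold for the median expressed gene. A range over 1.5-fold was found for 2 of the 52 genes, against 14.7% of expressed genes. Those were Evc and Evc2. The other 50 genes had ranges of at most 1.42-fold.

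**Figure D4:**
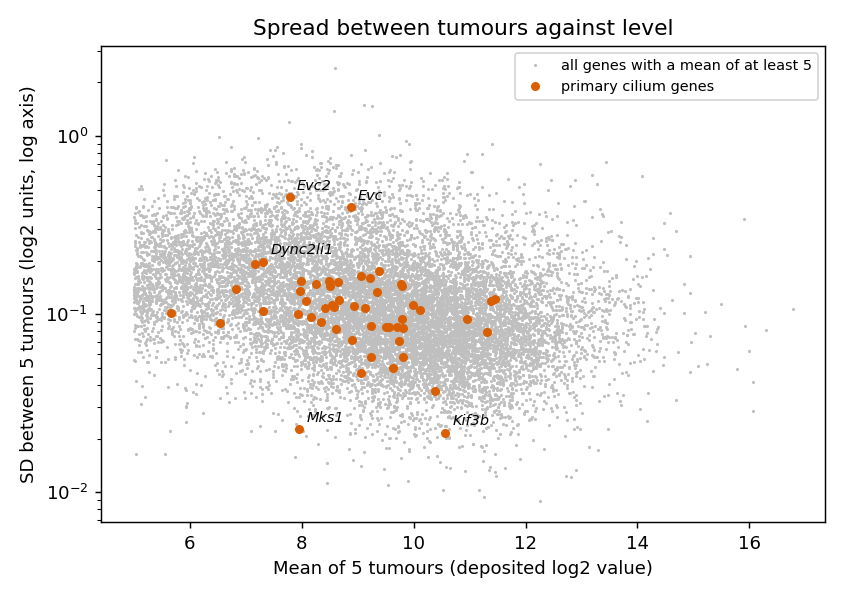
SD between 5 tumours (vertical log axis, log2 units) against mean level (horizontal axis, deposited log2 value) for all expressed genes (grey) and the 52 cilium genes (orange). Evc2 and Evc lie highest among the cilium genes, with SDs of 0.45 and 0.40, and Kif3b and Mks1 lowest, at 0.02.

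Evc and Evc2, whose products form a complex at the base of the cilium that relays Smoothened activity, shared their lowest and their highest tumour. Evc (chromosome 5, 37289098 to 37336894, minus strand) read 8.83, 8.39, 8.66, 9.11 and 9.42 in tumours 1, 5, 8, 14 and 15. Evc2 (chromosome 5, 37338499 to 37425055, plus strand) read 7.89, 7.17, 7.80, 7.65 and 8.42. Both genes were lowest in tumour 5 and highest in tumour 15, with ranges of 2.04-fold and 2.39-fold. The order of the other 3 tumours differed between the genes, with tumour 14 second highest for Evc and second lowest for Evc2. Deviations from the other tumours had the same sign for both genes in tumours 5 and 15 only. Per length, Evc exceeded Evc2 by 0.69 ± 0.24 (SD, n = 5), in 5 of 5 tumours, and by 1.09 with no length subtraction. Their SDs, 0.40 and 0.45, were at the 96.2th and 97.3th percentiles of expressed genes. The genes lie head to head, with 1604 bases between their annotated starts.

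Their promoter windows are shown because these are the most variable genes of the set and lie head to head. The short RFX motif on the opposite strand of Evc (bases -183 to -178) is in capitals, and neither window held a full motif. Evc is at chr5:37336832-37337131 on the minus strand and Evc2 at chr5:37338228-37338527 on the plus strand (GRCm38.p6, RefSeq).
Evc: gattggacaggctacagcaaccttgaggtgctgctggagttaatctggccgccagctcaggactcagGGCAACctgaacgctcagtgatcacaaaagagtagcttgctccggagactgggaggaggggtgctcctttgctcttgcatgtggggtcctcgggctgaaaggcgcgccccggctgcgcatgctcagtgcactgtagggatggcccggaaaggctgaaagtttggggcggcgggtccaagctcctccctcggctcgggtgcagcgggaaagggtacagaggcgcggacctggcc
Evc2: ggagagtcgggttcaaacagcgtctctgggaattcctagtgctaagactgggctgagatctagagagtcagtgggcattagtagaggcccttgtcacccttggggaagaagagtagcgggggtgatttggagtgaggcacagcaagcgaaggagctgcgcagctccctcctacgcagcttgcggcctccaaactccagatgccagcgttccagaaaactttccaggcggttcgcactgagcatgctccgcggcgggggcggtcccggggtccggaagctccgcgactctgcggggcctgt

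The low point of Evc, Evc2 and Kif7 in tumour 5 coincided with that of SHH pathway targets. Evc, Evc2 and Kif7 were among 16 of the 52 cilium genes lowest in tumour 5 (30.8%), against 24.6% of expressed genes. Of 8 listed targets (Gli1 and Ptch1 among them), 7 were lowest in tumour 5, where the median deviation of the list from the other 4 tumours was -0.49 on the log2 scale. None of the 8 was highest in tumour 15, however, where Evc and Evc2 peaked. The target list summed to a log2 level of 15.97 in tumour 5, below the 16.30 to 16.54 of the rest. Markers of other cells were also high in tumour 5. It led for 8 of 8 oligodendrocyte and 8 of 9 microglia markers, against 24.1% of expressed genes. Their summed log2 levels were 15.87 against 14.49 to 15.51, and 13.66 against 12.82 to 13.10. In bulk RNA, fewer cells of a type and less RNA per cell cannot be told apart. The part of cell makeup in the Evc and Evc2 values was not tested.

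A small shift ran through most of the cilium genes: levels were highest in tumour 15 and tended to be lowest in tumour 8. Of the 52 genes, 33 (63.5%) were highest in tumour 15, against 21.4% of expressed genes. The other tumours were highest for 6 genes (tumour 1, background 20.2%), 4 (tumour 5, 24.1%), 3 (tumour 8, 18.5%) and 6 (tumour 14, 15.8%). Tumour 8 was lowest for 23 genes (44.2%), against a background of 22.6%. Tumour 5 was lowest for 16 genes, with a background of 24.6%, and its share was 30.8%. Tumours 1, 14 and 15 were lowest for 5, 2 and 6 genes, with backgrounds of 16.9%, 13.0% and 22.9%. Each tumour is 1 library and the genes are not replicates, so these counts describe the 5 libraries and carry no test.

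The size of the shift was small. In tumour 15 the median deviation from the median of the other 4 tumours was 0.13 on the log2 scale, or 1.09-fold, and 44 of 52 genes lay above that median, against 47.6% of expressed genes. In tumour 8 the median deviation was -0.10, and 9 of 52 genes lay above, against 50.9% of expressed genes. The median deviation of all expressed genes was -0.01 in tumour 15 and 0.00 in tumour 8. Between the 2 tumours, 46 of 52 genes were higher in tumour 15, against 50.6% of expressed genes. The median difference of the cilium genes was 1.14-fold. For the 33 genes highest in tumour 15, the median gap to the next tumour was 0.07, and it exceeded 0.1 for 12 genes. When tumour 5 was left out, the number lowest in tumour 8 rose from 23 to 35.

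The counts depend on the scaling. The median of all genes was itself highest in tumour 15 (8.58, against 8.51 to 8.56 in the others). With each column centred on that median, 23 of 52 genes (44.2%) were highest in tumour 15, against 14.9% of expressed genes, and the median deviation there fell from 0.13 to 0.08. The median deviation of expressed genes fell as well, from -0.01 to -0.05. Centring shifts all genes of a column alike, so the gap of 0.13 between the cilium median and theirs could hardly change. Tumour 8 was lowest for 21 genes, against 19.0%. Centred on the median of expressed genes, an alternative chosen after seeing the data, the counts were 30 (57.7%, against 19.5%) and 24.

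**Figure D5:**
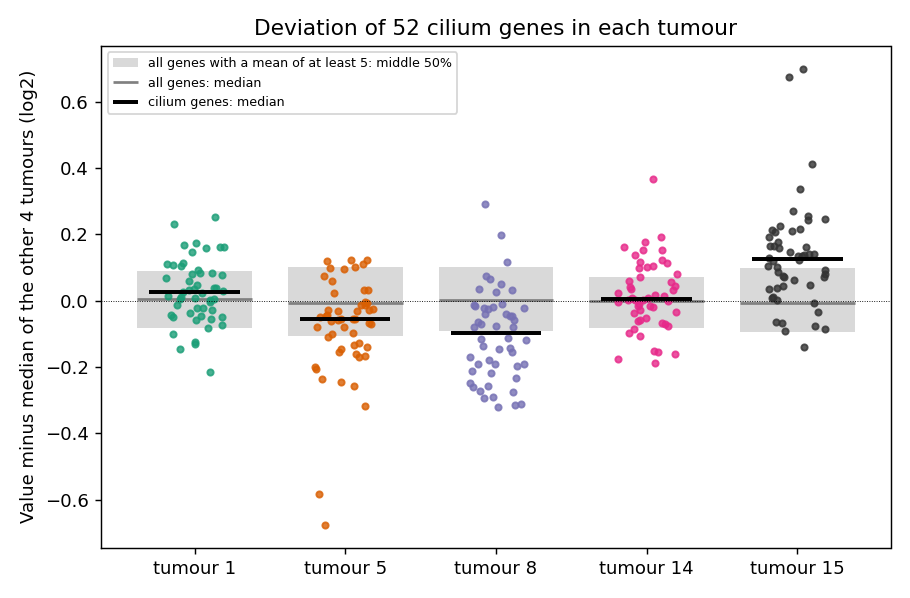
Deviation of each of the 52 cilium genes (points) in each tumour from the median of the other 4 tumours (vertical axis, log2), with the cilium median (black line) and the median and middle 50% of all expressed genes (grey). The cilium median is 0.13 in tumour 15 and -0.10 in tumour 8, while that of all genes stays near 0 in both.

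By role, the counts highest in tumour 15 are read against 21.4% of expressed genes as deposited. Tumour 15 was highest for 9 of 10 transition zone genes, 8 of 11 IFT-B genes, 6 of 9 membrane and Hedgehog trafficking genes, 5 of 8 BBSome genes and 3 of 5 IFT-A genes. It was highest for 1 of 6 motor genes, where tumour 1 led for 4, and for 1 of 3 basal body genes. With columns centred on the median of all genes, the transition zone count fell to 4 of 10 and the membrane and trafficking count to 3 of 9, while IFT-B had 7 of 11, BBSome 5 of 8 and IFT-A 3 of 5, against 14.9% of expressed genes. Tumour 8 was lowest for 8 of 11 IFT-B genes, 5 of 8 BBSome genes, 3 of 10 transition zone genes and 0 of 3 basal body genes, against 22.6% of expressed genes. Of the 10 genes with a full RFX motif, 7 were highest in tumour 15, as were 21 of the 37 with a window and no full motif. Whether these roles or motif groups differ was not tested.

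Other genes of the cilium, listed by function, showed the tumour pattern in part. Of 67 listed genes, 66 were in the table. Tumour 15 was highest for 26 of the 66 (39.4%), against 21.4% of expressed genes. Tumour 8 was lowest for 23 (34.8%), against 22.6%. The median deviations were 0.05 in tumour 15 and -0.04 in tumour 8. Of 8 IFT subunits that carry other symbols, 4 were lowest in tumour 8 and 7 highest in tumour 15, among them Wdr19 (IFT144), which read 8.71, 8.65, 8.47, 8.59 and 8.86 in tumours 1, 5, 8, 14 and 15, and Ttc26 (IFT56), at 7.23, 7.33, 7.19, 7.42 and 7.57. Of those 7 IFT subunits, Ttc30a2 averaged 1.51, below the floor of 5, and varied by 1.06-fold only. Of 13 further transition zone genes, 7 were highest in tumour 15, while 3 were lowest in tumour 8 and 6 in tumour 5 (24.6% of expressed genes). Wdr60, a dynein-2 chain, was the 1 gene of the 66 with a range over 1.5-fold, at 7.63, 7.69, 7.62, 7.84 and 8.21.

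Genes of cilium disassembly did not share it. None of the 8 in the table was highest in tumour 15, against 21.4% of expressed genes. In tumour 14, 4 were highest (15.8% of expressed genes), and in tumour 5, 6 were lowest (24.6%). Several of these, such as Aurka (10.62 ± 0.17), Nek2 (10.11 ± 0.24) and Plk1 (11.08 ± 0.12), are also mitotic genes, and 6 of 9 cell cycle markers were likewise highest in tumour 14 and 6 lowest in tumour 5. Among ciliary receptors and their effectors, Gpr161, a receptor that holds Hedgehog signalling down, averaged 9.98 ± 0.16, while Sstr3 and Mchr1, receptors of neuronal cilia elsewhere in the brain, averaged 4.30 ± 0.13 and 3.58 ± 0.05, below the floor of 5.

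The RFX factors whose motif was sought were all expressed, and 4 of 6 were highest in tumour 15, against 21.4% of expressed genes. Rfx2 read 7.65, 8.05, 7.76, 8.07 and 8.29 in tumours 1, 5, 8, 14 and 15, a 1.55-fold range, and Rfx4 read 8.25, 8.58, 8.43, 8.73 and 8.89, also 1.55-fold. Both were lowest in tumour 1. Rfx3 read 10.22, 10.28, 10.09, 10.32 and 10.37, and like many cilium genes was lowest in tumour 8. Rfx7 was the most abundant, at 11.94 ± 0.11, and was highest in tumour 14.

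Ciliated cells of another kind, ependymal and choroid plexus cells with motile cilia, were measured through their markers. Motile cilium genes were low: 12 of 19 had a mean of at least 5, and the median over the list was 5.10 ± 0.09 (SD, n = 5). Foxj1, the master regulator of motile cilia, read 7.64, 8.08, 8.16, 7.95 and 8.14. Dnah5, an outer dynein arm gene, averaged 4.75 ± 0.20 and Ccdc153 3.84 ± 0.07. The summed log2 level of the 19 was 9.85, 10.07, 10.05, 10.08 and 10.22 in tumours 1, 5, 8, 14 and 15. Tumour 15 was thus highest and tumour 1 lowest, and 16 of 19 genes were lowest in tumour 1, against 16.9% of expressed genes. Of the 19, 7 were highest in tumour 15 and 2 lowest in tumour 8, against 21.4% and 22.6%. Choroid plexus markers were higher, with a median of 8.18 ± 0.35 (SD, n = 5). All 8 had a mean of at least 5, from 5.04 (Kcne2) to 13.43 (Ttr). For choroid plexus markers, tumour 5 led with 7 of 8 and tumour 15 with 0 of 8, against 24.1% and 21.4%. Among defining markers, Tmem212 averaged 2.80 and Pifo 3.65. The scale holds no exact 0 (its lowest value was 0.33), so absence cannot be read from it. The part of ciliated cells other than tumour cells in the cilium gene values was not tested.

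Markers of the tumour lineage were present. The median of 6 granule neuron progenitor markers was 12.85, 13.07, 12.99, 13.03 and 12.97 in tumours 1, 5, 8, 14 and 15. Of the 6, 1 was highest in tumour 15 and 3 (Zic1, Zic2 and Pax6) were lowest there, against 21.4% and 22.9% of expressed genes. The 1 highest there was Atoh1, whose enhancer drives Math1-Cre and which marks undifferentiated progenitors. Atoh1 read 8.00, 8.17, 8.27, 9.18 and 9.49, a 2.81-fold range. It was high in tumours 14 and 15, and its highest tumour is also that of Evc, Evc2 and most cilium genes, while its lowest was tumour 1. Oligodendrocyte markers were abundant as well, with a median of 11.03. Astrocyte markers had the highest summed log2 level in tumour 5 (15.37, against 15.23 in tumour 15), with 3 of 7 genes highest in tumour 5 and 2 in tumour 15. Microglia markers were lowest in tumour 15 for 8 of 9, against 22.9% of expressed genes. Cell cycle markers were highest in tumour 15 for 0 of 9, against 21.4%. The part of these differences in the cilium shift was not tested.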

How the data were processed

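Per the labels' protocols, strand-specific mRNA libraries were made from total RNA of 5 tumours. The deposited log2 values were made by the authors with STAR 2.4.1, featureCounts (Subread 1.4.6) and DESeq2 on mm10/GRCm38, per the submitters' processing notes. They are read here as regularised-log values from the table's name; such values are corrected for library size and shrink differences of weakly expressed genes. The authors' annotation, strand setting, gene filter and DESeq2 version are not stated in the labels. Of its 7 columns, 2 could be tied to none of the samples and were not used. Read counts were not used, so depth is unknown, no counting interval is given, and the number of tumours (5) limits the precision. Column medians ran from 8.51 to 8.58.

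Members were found by symbol, and 52 of 52 matched 1 gene each in GENCODE M21 (GRCm38), as did 97.5% of all symbols. Exon length is the union of all annotated exons. Deviation is the difference between a tumour and the median of its 4 counterparts. Pairs were tested with an exact sign-flip permutation test. All members count in the totals, and all but 1 are named; some items are not reported here. Values in each tumour are given for the highest and lowest of each role per length, the 6 of largest SD, those with 1 tumour far from the rest and genes of the pairs described. The Xist value, columns centred on expressed genes and the Evc and Evc2 promoters were added after their values were seen. Proteins were not shown, since no protein sequences were used here. Members, lists and tests were chosen with earlier results of these data known. The steps were tested on simulated data. Alternatives covered each tumour left out, columns centred on their median, the low-value filter, lengths, summaries, thresholds and motif windows. No pseudocount was needed on a log scale. Python 3.11.15, numpy 2.4.6, pandas 2.3.3 and matplotlib 3.10.9 were used.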

Additional observations from a re-analysis of the deposited data

Results flagged for a closer look

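Single tumours lay far from the rest for 2 of the 52 cilium genes, by the ratio of the end gap to the whole range (Dixon's criterion for 5 values). This is near the share of 5.57% of genes with a mean log2 value of 5 or more that meet the criterion, and chance flags about 1 in 20 groups. Ift172 in tumour 8 was 9.93, with a gap of 0.80 of the range, below 10.14 to 10.19 in the others. Ift27 in tumour 14 was 9.86, with a gap of 0.73 of the range, above 9.68 to 9.73 in the others.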

How the results depend on the processing

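Of 221 recomputed values, 4 pair differences changed sign, and 12 values moved by more than their spread, or 1.5 times for counts. The other 205 were counted as unchanged. Among them, the median deviation of tumour 14 went from 0.0062 to -0.0020 without tumour 8. So small a sign change was not counted. For pairs only the sign was compared, and the size of several moved with gene length. The moves and reversals came mainly from gene length. With no length subtraction, Dync2h1 minus Dync2li1 was 2.46 and Ift74 minus Ift81 was -0.68 (both p = 0.0625, exact sign-flip permutation test), IFT-B minus IFT-A was 0.15, BBSome minus IFT-B -0.73 and transition zone minus IFT-B -1.08. With the longest transcript, Ift74 minus Ift81 was -0.22 and Tctn1 minus Tctn2 -0.084 (p = 0.125 and 0.1875, same exact test), the 3 role differences were 0.45, -1.12 and -1.27, and the per-length cilium median was 7.19. With means over members, that median was 6.64, IFT-B minus IFT-A 0.90 and transition zone minus IFT-B -1.59. A threshold of a 25% difference gave 16 genes in place of 2, and one of 2-fold gave 2. The share of expressed genes was not computed at these thresholds. Leaving out single tumours, the number of genes lowest in tumour 8 ran from 23 to 35 (35 without tumour 5), the number highest in tumour 15 from 33 to 37, the deviation of tumour 15 from 0.09 to 0.13 and that of tumour 8 from -0.12 to -0.08. The full RFX motif was in 7 of 47 genes (14.9%, against 3.98% of table genes) with the 250 upstream bases only. With a spacer of 2 only, it was in 9 of 47 (19.1%, against 2.64%). Columns centred on the median of all genes gave 23 genes highest in tumour 15 (33 as deposited) and a deviation of 0.08, and those centred on expressed genes 30 and 0.12. All members passed the low-value filter, so that alternative could change nothing. No comparison between conditions, paired or not, was possible because there is 1 group.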
